A study of Mus musculus with 10 samples.

Results

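Cytosolic ribosomal protein genes encode the proteins of the ribosome that translates nuclear messages. They were taken from the arrays by symbol: Rpl or Rps followed by digits, with A, X or l endings allowed, together with Rplp0, Rplp1, Rplp2 and Rpsa. Pseudogene symbols and the Rps6k kinases were left out, and only probe sets annotated with exactly 1 symbol were used. This gave 59 members of 19938 named genes, 22 of the small subunit and 37 of the large subunit. The large subunit members included the 3 stalk proteins. The members had 215 probe sets between them, and each gene was represented by its brightest one, judged by the mean of the 10 arrays. Another 17 ribosomal protein symbols, among them Rpl3, Rpl11, Rps24 and Rps27, occurred only on probe sets annotated with several genes and were not used. There was no filter on dim genes, so all 59 members were tested.

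The small ribosomal subunit reads the message and the large subunit forms the peptide bonds. Each mature ribosome carries its proteins in fixed proportions, and cells therefore make most of them at coordinated rates. Their messages begin with a terminal oligopyrimidine tract, a run of C and U bases through which the growth-sensing kinase mTOR controls their translation. Striated muscle also expresses Rpl3l, a paralog of Rpl3 that takes its place in part of the ribosomes of heart and skeletal muscle.

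Affymetrix arrays recorded RNA levels, as log2 intensities, in 2 kinds of sample, ventricular cardiomyocytes and whole hearts. VAChT KD mice gave 3 cardiomyocyte arrays and 2 heart arrays, and so did the WT mice they were set against. VAChT is encoded by Slc18a3 and fills secretory vesicles with acetylcholine. All mice were labelled as C57BL/6 males aged 3 months without treatment, and the RNA of 2 samples was pooled for each array. The series title has the form KDHOM, and the altered allele is not given in the sources used here. Nothing beyond the pooling says whether arrays came from separate animals, so p-values reflect only array-to-array spread, part of which may be technical.

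Slc18a3 itself had log2 intensities of 6.22, 6.52 and 6.21 in KD cardiomyocytes, against 6.06, 6.37 and 6.04 in WT cardiomyocytes, and of 7.31 and 7.84 in KD hearts, against 7.34 and 7.72 in WT hearts. The KD arrays were thus not lower than the WT arrays. Whether the probes lie in the altered part is not known, so the genotype labels could not be checked with this gene. The 2 kinds of sample had different array medians of the named genes (6.19 to 6.27 in cardiomyocytes, 7.54 to 7.59 in hearts) and were apparently normalized separately, so KD was compared with WT within each kind. The members were bright as a group, with a median between 9.85 and 10.27 in the cardiomyocyte arrays and between 10.28 and 10.52 in the heart arrays. The 9 cardiomyocyte markers averaged 13.17 to 13.26 in the cardiomyocyte arrays and 13.02 to 13.24 in the heart arrays. The 12 thymocyte and T cell markers averaged 9.66 in KD heart replicate 1, against 6.52 to 6.78 in the other 3 heart arrays. In RNA of bulk tissue, fewer cells of a type and less RNA per cell cannot be told apart. Precision was set by the few arrays. In cardiomyocytes the 95% confidence interval of a typical (median) member extended 0.26 (1.20-fold) to either side of its KD minus WT difference. In hearts it extended 0.32 (1.25-fold).

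The sequence around the start sites of members was searched for runs of C and T, which the symbol rule did not use. Part of that sequence lies before the start, so a run need not be the tract that begins a message. RefSeq (GRCm38.p6) listed a promoter of 47 members, and 17 of these (36.2%) had an unbroken run of at least 8 C or T bases within 15 bases of an annotated start. The share over the 15614 measured genes with a listed promoter was 14.1%, and over 68 mitochondrial ribosomal protein genes 13.2%. The windows below run from 15 bases before to 15 bases after the start, on the strand of the gene, and the capitals mark the longest run of C and T. They are shown for Rps9, Rpl38 and Rpsa, with high differences in cardiomyocytes, and for Rps6, with a difference near 0 in cardiomyocytes. The others are the stalk gene Rplp2 and Rpl28, with high differences in hearts, the muscle paralog Rpl3l, and Rps10, picked for a long run. The longest run of a member, 21 bases in Rpl7a, is not shown.
Rps9 (chr7:3704026-3704055, + strand): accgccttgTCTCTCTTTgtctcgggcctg
Rpl38 (chr11:114668565-114668594, + strand): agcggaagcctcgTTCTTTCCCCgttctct
Rpsa (chr9:120127751-120127780, + strand): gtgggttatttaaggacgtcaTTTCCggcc
Rps6 (chr4:86857353-86857382, - strand): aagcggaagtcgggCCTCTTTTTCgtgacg
Rplp2 (chr7:141447636-141447665, + strand): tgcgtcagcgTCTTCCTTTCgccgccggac
Rpl28 (chr7:4792950-4792979, + strand): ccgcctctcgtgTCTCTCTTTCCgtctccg
Rps10 (chr17:27635230-27635259, - strand): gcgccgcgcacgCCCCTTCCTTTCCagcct
Rpl3l (chr17:24727811-24727840, + strand): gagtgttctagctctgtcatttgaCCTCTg
The run was 13 bases long in Rps10, 11 in Rpl28, 10 in Rpl38, Rps6 and Rplp2, 9 in Rps9, and 5 in Rpsa and Rpl3l. The letters CCGGAA were searched on both strands of the 300 listed bases (250 before the start and 50 after it). They occurred in 24 of the 47 members (51.1%) and in 22.0% of all measured genes. They were not particular to the members, as they occurred in 39 of 68 mitochondrial ribosomal protein genes (57.4%). The letters GGGCGG occurred in 57.4% of members and 52.9% of all measured genes, AAGATGG in 8.51% and 7.28%, and TATAAA in 12.8% and 13.6%. Such matches describe the listed sequence only.

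In cardiomyocytes the ribosomal protein genes lay slightly higher in KD than in WT almost throughout, by a small amount that 1 WT array did not share. Of the 59 members 54 had a higher mean in KD and 5 a lower one, against 50% of all genes higher in KD. The median KD minus WT difference was 0.12 on the log2 scale, with quartiles of 0.07 and 0.18, against a median of -0.0001 over all genes. Of the genes brighter than the median gene, 50.7% were higher in KD. The differences ran from -0.10 for Rpl39l to 0.35 for Rpsa. No member passed in limma (adjusted p of 1 for each of the 59, where 0% of all genes passed). At an unadjusted p under 0.05 there were 3 members, all higher in KD, where 2.1% of all genes reached it and 0.988% did so on the higher side.

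The 5 highest differences in cardiomyocytes belonged to Rpsa, Rps9, Rps19, Rps13 and Rpl38. Rpsa, a small subunit protein also known as a laminin receptor, had 10.57, 10.39 and 10.50 in KD cardiomyocytes, against 10.36, 10.20 and 9.85 in WT cardiomyocytes. The arrays did not overlap, and the difference was 0.35 (SE 0.15, 95% confidence interval 0.03 to 0.67). Rps13, a core small subunit protein, had 9.28, 9.36 and 9.28 in KD and 8.93, 9.07 and 9.12 in WT. Here too every KD array lay above every WT array, with a difference of 0.27 (SE 0.11, interval 0.03 to 0.50). Rps19, whose human gene is the one most often mutated in Diamond-Blackfan anaemia, had 8.72, 8.53 and 8.56 in KD and 8.37, 8.21 and 8.36 in WT. The difference was 0.29 (SE 0.13, interval 0.01 to 0.57). Its arrays did not overlap either. These 3 genes were the only members whose interval lay off 0, and 56 of 59 intervals held 0.

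Rps9 and Rpl38 also stood among the highest differences, but with overlapping arrays. Rps9, a small subunit protein, had 10.52, 10.25 and 10.17 in KD cardiomyocytes and 10.62, 9.73 and 9.58 in WT cardiomyocytes. WT replicate 1 was thus the highest of the 6 and the other two WT arrays were the lowest, and the difference was 0.34 (SE 0.22). Rpl38, a large subunit protein needed in mice for the translation of certain Hox messages, averaged 11.60 ± 0.05 in KD cardiomyocytes and 11.34 ± 0.33 in WT cardiomyocytes (SD, n = 3 each). Its highest WT array, at 11.68, exceeded all 3 KD arrays.

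At the other end stood Rpl39l, Rps20, Rpl10a, Rps25 and Rps6, the 5 members with a lower mean in KD cardiomyocytes. Rps6, the substrate that gave the S6 kinases their name, had 12.64, 12.77 and 12.72 in KD and 12.73, 12.66 and 12.83 in WT, a difference of -0.03 (SE 0.09, interval -0.21 to 0.16). Rps25, used by some viral messages for internal initiation, averaged 10.27 ± 0.05 in KD cardiomyocytes and 10.30 ± 0.04 in WT cardiomyocytes (SD, n = 3 each). Rpl10a, next to the exit site of the ribosome, differed by -0.04 (SE 0.09), and Rps20 by -0.04 (SE 0.13). All 5 intervals held 0.

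Both subunits showed the same direction in cardiomyocytes. Of the 22 small subunit members 19 were higher in KD, with a median of 0.13, and of the 37 large subunit members 35 were higher, with a median of 0.12. The stalk proteins Rplp0, Rplp1 and Rplp2, which bring elongation factors to the ribosome, differed by 0.07 (SE 0.10), 0.15 (SE 0.13) and 0.12 (SE 0.13). Members with a C and T run of at least 8 were higher in 16 of 17, with a median of 0.10, and those with shorter runs in 27 of 30, with a median of 0.12.

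The WT cardiomyocyte arrays differed among themselves by more than the genotypes did. Relative to the WT mean of each gene, the members had medians of 0.17, 0.08 and 0.13 in KD cardiomyocyte replicates 1, 2 and 3, and of 0.20, -0.03 and -0.14 in WT cardiomyocyte replicates 1, 2 and 3. WT replicate 1 therefore lay above all 3 KD arrays, and the other two WT arrays lay below them. Within WT, 53 of 59 members were higher in replicate 1 than in replicate 3, where 47.2% of all genes were. The members' median gap was 0.30, more than the median difference between the genotypes, and that of all genes was -0.01. WT replicate 1 was the highest of the 6 arrays in 25 members and WT replicate 3 the lowest in 37. Just 5 members (Rpsa, Rps13, Rps19, Rpl13 and Rpl7a) had every KD array above every WT array, where 2.99% of all genes did, and none had every KD array below every WT array, where 3.21% of all genes did. Without WT replicate 1 the median was 0.21, with 54 of 59 higher, where 47.7% of all genes were. Without WT replicate 3 it was 0.05, with 45 of 59 higher, where 50.3% of all genes were. No member passed in either case.

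**Figure D1:**
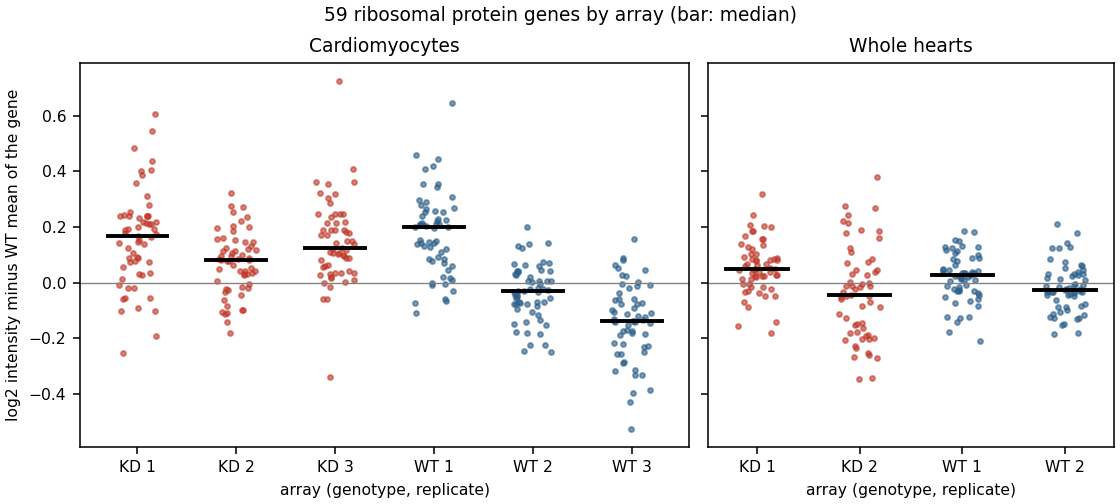
Log2 intensity of the 59 ribosomal protein genes in each array minus the WT mean of the gene in that kind of sample (y axis), for KD (red) and WT (blue) arrays of cardiomyocytes (left) and whole hearts (right). Each point is a gene and the bar is the array's median. WT cardiomyocyte replicate 1, with a median of 0.20, lies above the KD medians, while WT replicate 3 has a median of -0.14.

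Markers of other cells moved along the same arrays in part. The 8 macrophage markers were all lower in KD cardiomyocytes (median -0.27). Relative to the WT mean their medians were -0.30, -0.22 and -0.34 in the KD arrays and -0.06, -0.24 and 0.30 in the WT arrays. The array with the highest macrophage markers, WT replicate 3, was the one with the lowest ribosomal protein genes, but WT replicate 2 had low macrophage markers and low ribosomal protein genes. The macrophage markers averaged 5.49 to 5.64 in KD and 5.51 to 6.27 in WT, around or below the median named gene. The 9 cardiomyocyte markers had medians between -0.008 and -0.0002 in KD and between -0.06 and 0.02 in WT. The 5 atrial markers had medians of 0.22, -0.45 and -0.22 in the KD arrays and of 0.27, 0.40 and -0.58 in the WT arrays. WT replicate 3 was thus the lowest in them as well. Other lists ordered the arrays otherwise. The endothelial markers had medians of -0.22, 0.003 and -0.04 in KD and of 0.12, -0.20 and 0.10 in WT. The fibroblast markers had -0.14, 0.11 and -0.16 in KD and 0.06, -0.25 and 0.15 in WT. The smooth muscle markers had -0.04, 0.15 and 0.30 in KD and 0.004, -0.21 and 0.15 in WT. The part of these cells in the result was not tested.

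**Figure D2:**
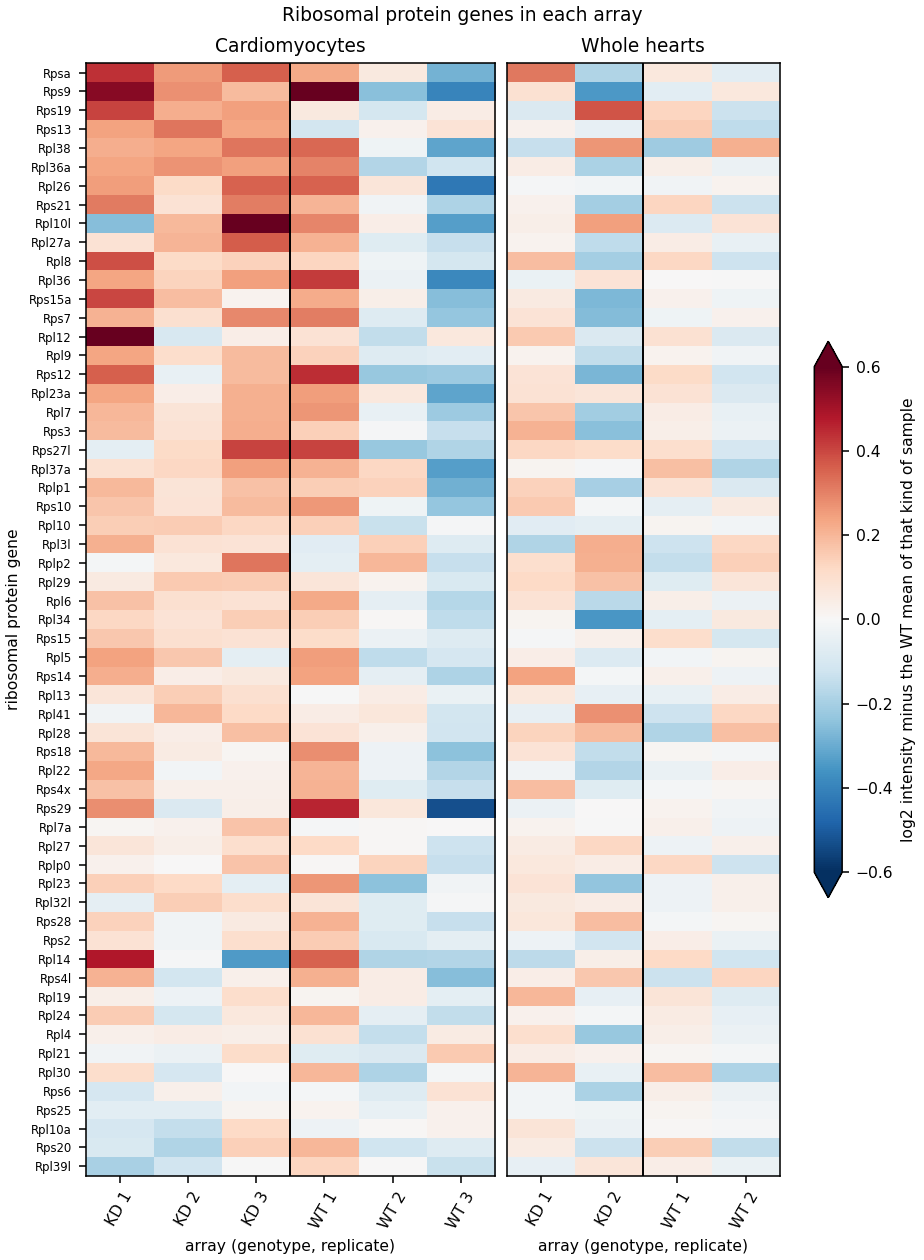
Each row is a ribosomal protein gene, ordered by its KD minus WT difference in cardiomyocytes, and each column an array, KD left of WT. Colour is the log2 intensity minus the WT mean of that kind of sample. In cardiomyocytes, WT replicate 1 resembles the KD columns and WT replicate 3 is mostly blue, while the heart columns show no common shift of both KD arrays.

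Probe sets other than those kept gave the same picture in the same arrays. Of the 156 other probe sets of the members 149 (95.5%) were higher in KD cardiomyocytes, with a median of 0.12, against 50.3% of all 21789 probe sets with 1 symbol. They are not independent: the 3 probe sets of Rpl41 had identical differences (0.10), and ribosomal protein genes have many processed pseudogenes whose copies such probes can also bind. All 14 probe sets of Rps12 were higher in KD cardiomyocytes, between 0.11 and 0.20. Rpsa was less uniform, as its 5 probe sets ranged from 0.05 to 0.35 with a median of 0.13, and so was Rps9, whose 2 gave 0.07 and 0.34. The high values of Rpsa and Rps9 thus belonged to the brightest probe set of each gene. For Rps6, 7 of 8 probe sets were slightly higher in KD cardiomyocytes and the brightest was not, with values from -0.03 to 0.04.

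In whole hearts the ribosomal protein genes did not lie to one side. Of the 59 members 31 were higher in KD and 28 lower, where 52.5% of all genes were higher. The median difference was 0.006, against 0.008 over all genes, and the range ran from -0.17 for Rpl34 to 0.16 for Rpl28. None passed in limma (adjusted p of 1 for each, where 0% of all genes passed), and none reached an unadjusted p under 0.05, where 4.93% of all genes did. Both KD arrays lay above both WT arrays in 6 members (Rpl21, Rpl27, Rpl29, Rpl32l, Rps27l and Rps28), where 14.2% of all genes did, and below both in Rpl10 alone, where 15.4% did. Every one of the 59 intervals held 0.

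The highest heart differences were those of Rpl28, Rplp2, Rpl29, Rps19 and Rpl10l. Rpl28, a large subunit protein, had 12.11 and 12.16 in KD hearts, against 11.80 and 12.15 in WT hearts. The difference of 0.16 (SE 0.13, interval -0.11 to 0.44) went with a WT replicate 1 below the other 3 arrays. Rplp2 had 9.57 and 9.68 in KD hearts and 9.33 and 9.61 in WT hearts, a difference of 0.16 (SE 0.16). Rpl29, a large subunit protein, had 10.33 and 10.38 in KD and 10.13 and 10.28 in WT, with no overlap and a difference of 0.15 (SE 0.12). Rps19 had 8.70 and 9.17 in KD hearts and 8.92 and 8.66 in WT hearts, so the arrays of the 2 genotypes interleaved. The lowest differences were those of Rpl34 (-0.17, SE 0.14), Rps9 (-0.12, SE 0.27), Rps15a (-0.11, SE 0.17), Rps6 (-0.10, SE 0.10) and Rpl22 (-0.10, SE 0.15). Rpl34, a large subunit protein, had 8.997 and 8.64 in KD hearts and 8.92 and 9.04 in WT hearts, so KD replicate 2 alone lay apart. Rps9 had 10.68 and 10.25 in KD hearts and 10.52 and 10.65 in WT hearts, with the KD arrays on both sides of the WT arrays. The other, dimmer probe set of Rps9 went the opposite way in hearts, with a difference of 0.37. Rpl22, needed in mice for the development of alpha-beta T cells, had 9.19 and 9.03 in KD hearts and 9.17 and 9.25 in WT hearts.

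The 2 KD hearts differed from each other. Relative to the WT mean, the members had a median of 0.05 in KD replicate 1 and -0.04 in KD replicate 2, against 0.03 and -0.03 in the 2 WT hearts. In 42 of 59 members KD replicate 1 was the higher of the KD pair, where it was in 37.2% of all genes. That array is the one with thymocyte and T cell markers at a median of 2.90 above the WT mean, where KD replicate 2 was at 0.03. Its 5 markers of dividing cells were at a median of 0.76, against 0.12 in KD replicate 2. The 9 cardiomyocyte markers were all lower in KD hearts (median -0.13), at medians of -0.14 and -0.08 in the KD arrays and of 0.02 and -0.02 in the WT arrays. KD replicate 2 stood apart in the 5 atrial markers, which had medians of -0.24 and -1.45 in the KD arrays and of 0.03 and -0.03 in the WT arrays. The 5 atrial and 6 fibroblast markers were each lower in either KD heart than in either WT heart. So were 4 of 6 endothelial, 3 of 4 smooth muscle and 6 of 9 cardiomyocyte markers, but none of the macrophage or thymocyte and T cell markers. Of all genes 15.4% were, and of the 9969 genes above the median gene in hearts 2146 were. The 2 measured red cell markers had a median difference of 0.66. Without KD replicate 1 the median of the members was -0.04 with 21 of 59 higher, where 58.6% of all genes were. Without KD replicate 2 the members' median was 0.05 with 44 of 59 higher, where 40.8% of all genes were. The part of these cells in the result was not tested.

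The heart result also varied with how brightness was treated. Among genes above the median gene in hearts, 42.2% were higher in KD. With a loess trend of the KD minus WT differences on mean intensity removed, 50 of 59 members were higher in KD hearts. Their median was 0.10, and 50.7% of all genes were higher. With quantile normalization of all 10 arrays 48 members were higher, with a median of 0.08, where 48.7% of all genes were. With the trend removed and KD replicate 1 left out, 32 of 59 were higher with a median of 0.02, where 50.4% of all genes were. With the trend removed and KD replicate 2 left out, 55 were higher with a median of 0.18, where 51.2% of all genes were. No member passed in limma under any of these. In cardiomyocytes the trend mattered little, as 52 of 59 members were higher after its removal, with a median of 0.11. Of all genes 49.6% were higher there.

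**Figure D3:**
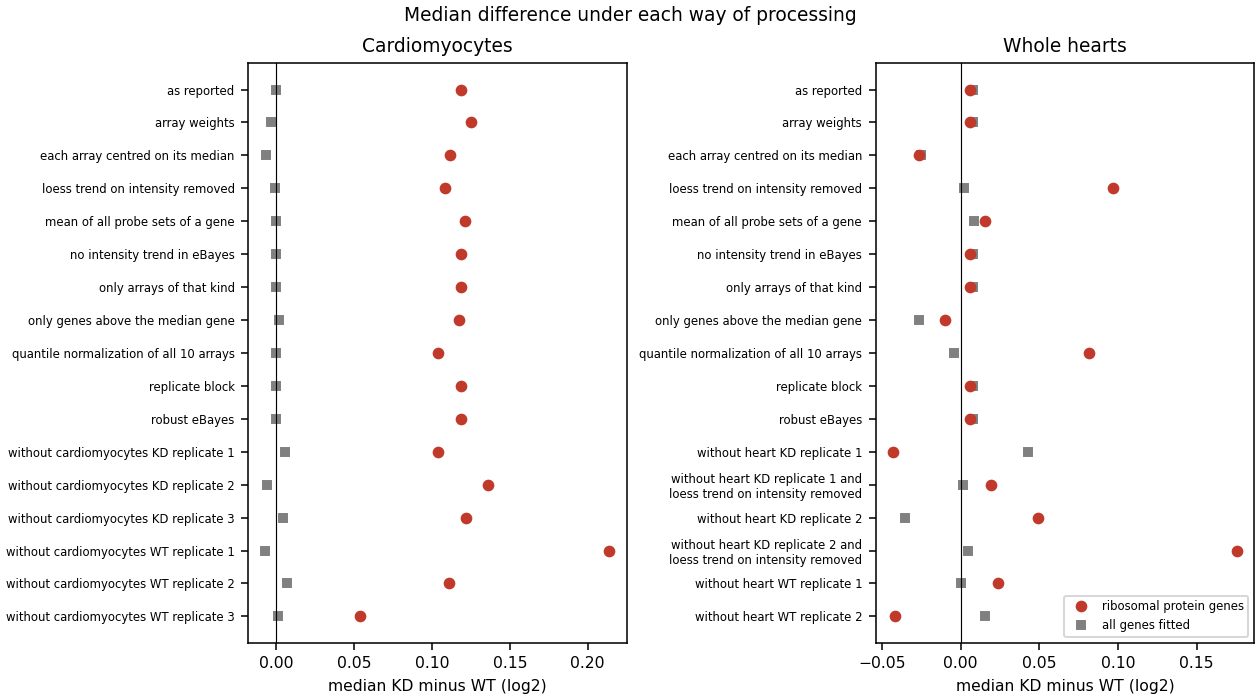
Median KD minus WT difference (log2, x axis) of the ribosomal protein genes (red circles) and of all genes fitted (grey squares) under each way of processing (rows), for cardiomyocytes (left) and whole hearts (right). In cardiomyocytes the red circles lie between 0.05 and 0.21. In hearts they lie between -0.04 and 0.18.

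The difference between the KD effects in the 2 kinds of sample was tested in the same fit. The heart effect was below the cardiomyocyte effect in 44 of 59 members, where 48.8% of all genes were, with a median of -0.10. No member passed (lowest adjusted p in limma 0.999), and none had an unadjusted p under 0.05, where 3.49% of all genes did. The smallest p belonged to Rpl36a, Rps13 and Rpl9. Rpl36a, a large subunit protein, had a difference of 0.25 (SE 0.12) in cardiomyocytes and of -0.07 (SE 0.15) in hearts. Rpl9, also of the large subunit, had 0.18 (SE 0.10) in cardiomyocytes and -0.06 (SE 0.12) in hearts. The count varied with single arrays and with scaling, while the median stayed below 0 in the settings given here. The heart effect was above the cardiomyocyte effect in 15 of 59 members as reported. It was above in 7 without WT cardiomyocyte replicate 1 (median -0.21) and in 25 without WT cardiomyocyte replicate 3 (median -0.04). It was above in 27 with the intensity trend removed (median -0.01) and in 26 with quantile normalization (median -0.02). In these altered settings it was above in 48.2% to 53.2% of all genes. Among genes brighter than the median gene, the heart effect was above in 14 of 55 members and in 40.5% of 8847 genes. No member passed under any of these.

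**Figure D4:**
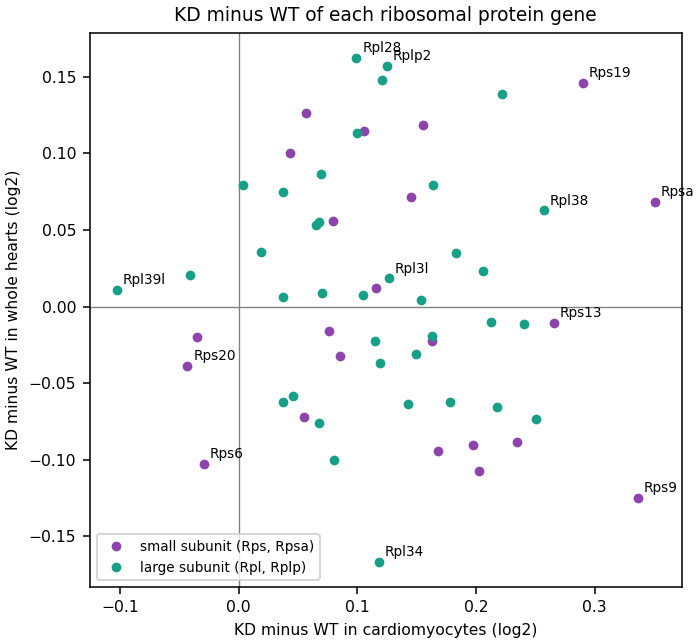
KD minus WT difference of each ribosomal protein gene (log2) in cardiomyocytes (x axis) and in whole hearts (y axis), for small subunit (purple) and large subunit (green) genes, with the genes at the edges and Rpl3l named. Most points, 54 of 59, lie right of 0 on the x axis, while 31 lie above 0 and 28 below it on the y axis.

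The paralogs with an l ending were followed beside the main genes. Rpl3l, the striated muscle form, had 10.39, 10.27 and 10.26 in KD cardiomyocytes, against 10.11, 10.32 and 10.10 in WT cardiomyocytes. The groups overlapped through WT replicate 2, and the difference was 0.13 (SE 0.12, interval -0.14 to 0.39). In hearts Rpl3l had 9.53 and 9.93 in KD and 9.58 and 9.83 in WT, so the KD arrays enclosed the WT arrays, with a difference of 0.02 (SE 0.15, interval -0.31 to 0.35). Rpl3, its ubiquitous counterpart, lay only on probe sets shared with other genes, so the balance of the pair was not analysed here. Rps27l, a p53-induced relative of Rps27, averaged 9.61 ± 0.23 in KD cardiomyocytes and 9.46 ± 0.35 in WT cardiomyocytes (SD, n = 3 each). In hearts it had 8.36 and 8.35 in KD and 8.34 and 8.14 in WT, a difference of 0.12 (SE 0.20).

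Rpl39l and Rpl10l, which in mice serve male germ cells, were dim. Rpl39l had 3.85, 3.93 and 4.04 in KD cardiomyocytes and 4.18, 4.05 and 3.92 in WT cardiomyocytes, below the median named gene of 6.19 to 6.27, and no detection calls were at hand to tell whether it was above background. Rpl10l ranged from 5.68 to 6.66 in KD cardiomyocytes and from 5.60 to 6.22 in WT cardiomyocytes, a difference of 0.22 (SE 0.21). Its parent gene Rpl10, on the X chromosome, differed by 0.14 (SE 0.09) in cardiomyocytes and by -0.06 (SE 0.11) in hearts. Rps4l differed by 0.04 (SE 0.14) in cardiomyocytes and by 0.10 (SE 0.17) in hearts, and Rpl32l by 0.07 (SE 0.10) and 0.05 (SE 0.12). At the kept probe sets, all 6 of these paralogs had a higher mean in KD hearts, by 0.01 to 0.14, where 52.5% of all genes did. In KD cardiomyocytes 5 of the 6 had a higher mean, where 50% of all genes did. The other probe set of Rps4l differed by 0.17 in cardiomyocytes and by -0.02 in hearts, so the heart count varied with the probe set.

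**Figure D5:**
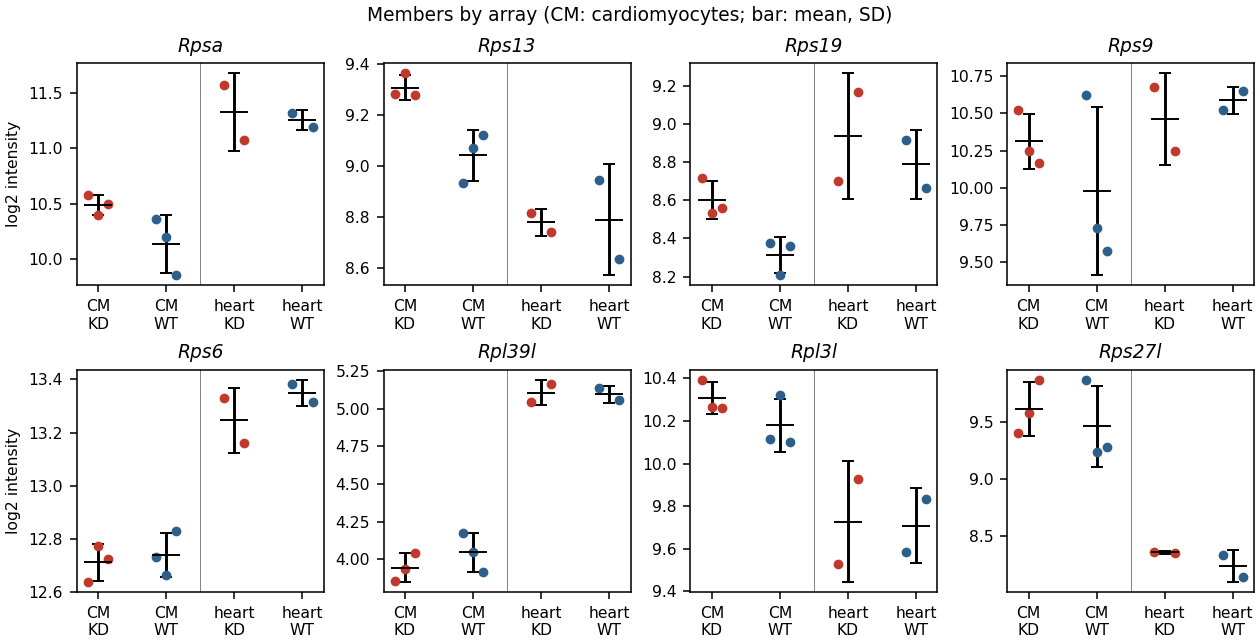
Log2 intensity (y axis) of 8 members in each array (points) with the group mean and SD (bars), KD in red left of WT in blue, for cardiomyocytes (CM) and whole hearts. Rpsa, Rps13 and Rps19 do not overlap between KD and WT cardiomyocytes, while the other 5 genes do.

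Other genes of translation were split about evenly between higher and lower in KD cardiomyocytes, and their difference from the members was not tested. Of 24 measured initiation factor genes 12 were higher in KD cardiomyocytes (median 0.003), and of 10 elongation and termination genes 5 (median 0.008). Of 43 ribosome assembly genes 22 were higher (median 0.0003), and of 25 genes of RNA polymerase I and growth control 12 (median -0.02). Other messages known for a terminal oligopyrimidine tract were higher in 5 of 13 (median -0.006). None of these genes passed in limma in either kind of sample. The smallest p among the initiation factors was that of Eif3m, a subunit of the scaffold factor eIF3, with a difference of 0.27 (SE 0.13). Rrp9, which binds the U3 RNA of ribosome assembly, differed by 0.26 (SE 0.12). Myc, a transcription factor that drives ribosome production, had 6.59, 6.75 and 6.70 in KD cardiomyocytes and 7.16, 6.68 and 7.36 in WT cardiomyocytes. The difference was -0.38 (SE 0.17), with 1 WT array among the KD arrays. In hearts Myc went the other way, with a difference of 0.36, the highest of the 25 genes of its list.

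In hearts the medians of these lists were -0.01 for initiation (9 of 24 higher), 0.02 for elongation and termination (7 of 10) and -0.04 for assembly (16 of 43). They were -0.02 for polymerase I and growth control (11 of 25) and 0.03 for the other oligopyrimidine messages (8 of 13). Of all genes 52.5% were higher in KD hearts, and of those above the median gene 42.2%. Pabpc1, the cytoplasmic poly(A) binding protein gene, had 12.68 and 12.48 in KD hearts, against 11.88 and 12.24 in WT hearts. Its arrays did not overlap, and the difference was 0.52 (SE 0.15) with an adjusted p of 0.95 in limma. Eif4a2, an RNA helicase of initiation, had 10.98 and 11.03 in KD hearts and 11.26 and 11.47 in WT hearts, a difference of -0.36 (SE 0.12). Rrs1, an assembly factor of the large subunit, differed by -0.45 (SE 0.15). Ribosomal protein genes with other names were few on the arrays: Fau, the source of the small subunit protein eS30, differed by 0.02 (SE 0.09) in cardiomyocytes and by 0.15 (SE 0.11) in hearts, and Rps3a1 by 0.25 (SE 0.34) and 0.09 (SE 0.42).

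The mitochondrial ribosome, which translates the messages of the mitochondrial genome, has its own nuclear-encoded proteins. Of 77 such genes 67 were higher in KD cardiomyocytes, where 50% of all genes were. Their median was 0.12, close in size to that of the 59 cytosolic genes. Relative to the WT mean their medians were 0.13, -0.02 and 0.18 in KD cardiomyocytes and 0.18, -0.03 and -0.14 in WT cardiomyocytes, so WT replicate 1 and KD replicate 3 were about level at the top and WT replicate 3 was the lowest. In hearts 17 of the 77 were higher in KD, with a median of -0.10, against 31 of 59 and 0.006 for the cytosolic genes. Of all genes 52.5% were higher in KD hearts, and of those above the median gene 42.2%. Both KD hearts lay below both WT hearts in 32 of the 77, where 15.4% of all genes did. Whether the gene groups differ was not tested.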

How the data were processed

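The deposited values are log2 intensities of 35556 probe sets on 10 Affymetrix arrays. RMA and Partek are named in the submitters' processing notes, with no version or setting. Biotin-labelled cDNA was hybridised, per the labels' protocols. RMA makes arrays treated together alike in distribution and compresses differences of dim probes. Of the probe sets 21789 had 1 symbol in the platform annotation, 1621 had several and were not used, and 12146 had none listed. The brightest probe set was kept for each of 999 genes with more than 1, which left 19938 genes. Group means of the 4 groups were estimated for every gene with limma 3.58.1 (R 4.3.3), followed by eBayes with an intensity trend (6 residual and 6.805 prior degrees of freedom). Two-sided p-values were adjusted over all genes by the Benjamini-Hochberg method and called at 0.05. In 5 simulated runs with 200 genes changed 2-fold (1 on the log2 scale) among 19938, the code recovered 92.7% in cardiomyocytes and 84.6% in hearts, with 9.6 and 7.8 false calls per run. No member differed by that much, and genes varied independently in the simulation, so these rates do not apply to the members' differences.

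Members, gene lists and tests were chosen with earlier results of these data known, and lists are described by counts and medians without a test. Named genes were the l paralogs with their parents, the stalk genes, Rpsa and Rps6, the 5 highest and 5 lowest members in each kind of sample, the 3 with the smallest p for the difference between the effects, and list genes with the smallest p; members singled out for non-overlapping arrays or probe sets, and those whose start sites are shown, were chosen after their values were seen. Alternatives were other scalings, filters, probe set rules and fits, removal of a loess trend (span 0.3), the replicate number as a block, and leaving out each array. Replicates correlated at 0.980 to 0.995 over genes.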

Additional observations from a re-analysis of the deposited data

How the results depend on the processing

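No member passed in limma under any alternative run, in cardiomyocytes, hearts or the difference between them. With single arrays left out, the cardiomyocyte median stayed between 0.05 and 0.21, with 45 to 56 members higher. Of all genes 47.6% to 52.4% were higher in those fits. Under the other alternatives the median of the members stayed between 0.10 and 0.13. The median difference between the effects lay between -0.21 and -0.03 with single arrays left out. In hearts, removal of the loess trend gave 50 members higher with a median of 0.097, and list medians of 0.043 (initiation), 0.12 (elongation), 0.19 (ribosomal genes named otherwise), 0.16 (other oligopyrimidine messages) and 0.016 (polymerase I and growth). Quantile normalization gave 48 members higher with a median of 0.082, and 0.045, 0.0855, 0.15, 0.15 and 0.0031 for the same lists. Centring on array medians gave -0.055 for polymerase I and growth. A heart array was also left out, with or without the trend removed (the trend with an array left out was chosen after seeing the data). The members' median then lay between -0.043 and 0.18 with 21 to 55 higher, where 40.8% to 58.6% of all genes were. The list medians then lay between -0.066 and 0.12 for initiation, -0.0092 and 0.17 for elongation, 0.010 and 0.19 for ribosomal genes named otherwise, -0.074 and 0.26 for other oligopyrimidine messages, -0.075 and 0.059 for assembly (0.011 without KD replicate 2), and -0.016 and 0.044 for polymerase I and growth (0.020 without WT replicate 2, and 0.032 without KD replicate 2 and with the trend removed). The causes were not tested. Of the members 18 in cardiomyocytes and 52 in hearts changed sign at least once, none of them past the threshold. Pabpc1 passed in hearts under 1 alternative, without KD replicate 2 and with the trend removed (adjusted p 0.048 in limma), where 327 of 19938 genes passed, against 0 with all arrays, and KD hearts were the array with high thymocyte markers alone.

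With the replicate number as a block the members' medians were 0.12 in cardiomyocytes and 0.006 in hearts, and again 0 members passed. These medians could not change, as each number holds a KD and a WT array of a kind of sample. Only the estimated spread could. Deviations of same-numbered arrays correlated at 0.152, 0.131 and -0.052 in cardiomyocytes, where differently numbered arrays gave -0.188 to 0.066. In hearts the values were 0.234 and -0.234, which with 2 arrays a group must be equal in size. These values do not settle whether the numbers mark pairs, and the numbers were not taken as pairs. Replicate 1 had the highest median of the members in each group. By number, KD cardiomyocyte replicates 1, 2 and 3 lay above WT in 21, 45 and 52 of 59 members. Of all genes 51.7%, 51.2% and 48.3% did. Fits without a heart array assume that the lone array varies like the other groups. Dim members such as Rpl39l are limited by signal over background, which no detection call defines here.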
